A study of Mus musculus with 203 samples.

Results

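The NCoR/SMRT corepressor complex was followed here through the mRNAs of 5 of its subunits, Gps2, Ncor1, Hdac3, Tbl1x and Tbl1xr1. Its members were the rows of the RNA-seq tables that carry these symbols, and the rule found 5 of 5 among the 25094 genes listed for RAW cells and 5 of 5 among the 16478 genes listed for bone marrow-derived macrophages (BMDMs). The series holds 203 samples and asked how GPS2 and the histone demethylase KDM1A act on the response of macrophages to interleukin 4 (IL4). Values per library were used from the 16 RNA-seq libraries of RAW264.7, a mouse macrophage cell line labelled with the strain BALB/c. All of these cells carried a lentiviral short hairpin RNA, against GFP in shGFP control cells and against Kdm1a in shKDM1A cells. Each line was grown without IL4 or with 20 ng/ml IL4 for 6 h, which gave 4 groups of 4 libraries. The study's methods give each line as a stable, puromycin-selected population with 1 hairpin per target, and nothing in the labels says whether the 4 libraries of a group came from separate cultures, so p-values measure the spread between these libraries. The BMDM table, from wild-type and macrophage-specific Gps2 KO C57BL/6 mice with and without the same IL4 treatment, lists the same transcripts of the 5 subunits, and its columns hold comparisons only, which were not used here.

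NCOR1 is a large scaffold protein that is recruited by nuclear receptors without activating ligand and by other transcription factors. HDAC3 is the histone deacetylase of the complex and depends on the scaffold for its activity, GPS2 and the WD40 proteins TBL1 (Tbl1x) and TBLR1 (Tbl1xr1) bind near the amino end of the scaffold, and TBL1 and TBLR1 also take part in the exchange of corepressors for coactivators. In macrophages the complex is best known for holding inflammatory and metabolic genes in check.

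Tbl1x and Tbl1xr1 are close paralogs, and the stretch below is the longest one in which their coding sequences are identical, so it shows how well reads of the pair can be told apart. The capitals mark the 20 identical bases, at positions 1159 to 1178 of the Tbl1x and 1120 to 1139 of the Tbl1xr1 coding sequence in GENCODE vM1 on NCBIM37 (mm9), with 20 bases on either side.
Tbl1x: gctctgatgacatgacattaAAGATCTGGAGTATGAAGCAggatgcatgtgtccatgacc
Tbl1xr1: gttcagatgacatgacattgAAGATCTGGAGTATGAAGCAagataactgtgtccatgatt
Over 1542 aligned coding bases the 2 genes were 77.5% identical, and none of the 5185 windows of 50 bases in Tbl1x occurred in a coding transcript of another gene. Tbl1xr1 shared 0.05% of its windows and Ncor1 0.46% with other genes, and Gps2 and Hdac3 shared none. Gps2 and Tbl1xr1 are the 2 subunits that limma called higher with IL4 in shGFP cells (exact permutation test, p = 0.0571 each). The second set is the 250 bases before the start of each. They were taken from RefSeq promoters of GRCm38.p6, and a match to NCBIM37 (mm9) placed them on the plus strand at chr11:69727272-69727521 for Gps2 and chr3:21975324-21975573 for Tbl1xr1, each ending 1 base before the start of the gene's row.
Gps2: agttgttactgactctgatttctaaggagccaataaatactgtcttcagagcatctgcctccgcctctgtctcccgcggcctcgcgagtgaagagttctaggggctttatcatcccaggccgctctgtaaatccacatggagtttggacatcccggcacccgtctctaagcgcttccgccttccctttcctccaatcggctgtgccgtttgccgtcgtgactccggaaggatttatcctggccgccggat
Tbl1xr1: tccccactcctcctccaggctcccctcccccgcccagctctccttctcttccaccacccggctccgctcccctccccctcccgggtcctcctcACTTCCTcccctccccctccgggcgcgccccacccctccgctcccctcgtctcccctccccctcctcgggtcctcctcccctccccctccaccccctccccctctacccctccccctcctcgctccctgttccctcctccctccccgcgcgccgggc
RefSeq promoter entries were found for 4 of the 5 subunits, and both strands were searched for 4 motifs. The STAT6-type motif, TTC and GAA with 4 bases between them, is in 5.85% of the 32851 windows of all RefSeq promoters and was in neither window. The STAT motif TTCNNNGAA (7.02% of windows) and the AP-1 site TGACTCA (4.46%) were not found in them either. The capitals mark the only match, to AGGAAGT, a core of the kind PU.1 binds, on the minus strand of the Tbl1xr1 window, and 7.69% of all windows hold this motif. It overlaps no match to the other motifs. These matches describe the letters of the windows and no binding.

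The libraries held between 17554721.0 and 27782568.0 tags in genes. The deposited values are log2 values that were normalized between libraries and moderated, so differences of weakly expressed genes are drawn towards 0, and all fold changes below are on that scale. Of the 9 macrophage markers listed, all lay above a log2 value of 9 in every library (9.2 to 17.2), and of 21 markers of T cells, B cells, endothelium, fibroblasts, epithelium and neutrophils 20 had a mean under 2 and Lck lay between 5.7 and 5.9. Kdm1a, the targeted gene, was at 11.18 ± 0.04 in shGFP and 10.30 ± 0.05 in shKDM1A cells without IL4, and at 11.10 ± 0.03 and 10.32 ± 0.03 with IL4 (mean log2 value ± SD, n = 4). The change with the hairpin was -45.8% without IL4 and -42.0% with IL4 on the deposited scale. Ptgs1, the cyclooxygenase 1 gene, rose by 1.77 (SE 0.038) log2 units with IL4 in shGFP and by 1.08 in shKDM1A cells. Libraries 1 and 3 of the IL4-treated shKDM1A cells stood apart from libraries 2 and 4. In libraries 1 and 3 the median of the 1314 genes of 6000 bases or more lay 0.074 and 0.066 log2 units lower against that of the 2639 genes under 1500 bases, relative to the group mean, and in libraries 2 and 4 it lay 0.076 and 0.066 higher. Untreated shGFP cells had a similar spread, with library 4 at -0.062 and libraries 2 and 3 at 0.039 and 0.040, and the libraries of the 2 other groups lay between -0.034 and 0.017. Values without these libraries stand beside many of the results below.

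Levels of the 5 subunits were compared per kb of the transcript that the table names, as log2 value less log2 length. Hdac3 and Gps2 were the most abundant mRNAs of the 5, at 9.66 ± 0.04 and 9.57 ± 0.08 per kb in shGFP cells without IL4 (mean ± SD, n = 4), and their libraries overlapped in all 4 groups. Tbl1x followed at 8.91 ± 0.05 and Ncor1, the scaffold, at 8.72 ± 0.09, and Tbl1xr1 was lowest at 7.31 ± 0.07. From Gps2 or Hdac3 down, neighbours in this order did not overlap in any of the 4 groups, and only the first 2 places changed hands: the mean of Gps2 was above that of Hdac3 by 0.03 with IL4 in shGFP and by 0.01 with IL4 in shKDM1A cells. The smallest step between neighbours that did not overlap was 0.13, between Tbl1x and Ncor1 in IL4-treated shGFP cells, and the largest was 1.41, between Ncor1 and Tbl1xr1 in shGFP cells without IL4. Averaged over the 16 libraries, the level per kb of Hdac3 was above that of 82.4% of the 12905 genes tested, that of Gps2 above 82.1%, of Tbl1x above 71.9%, of Ncor1 above 67.8% and of Tbl1xr1 above 45.8%.

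**Figure D1:**
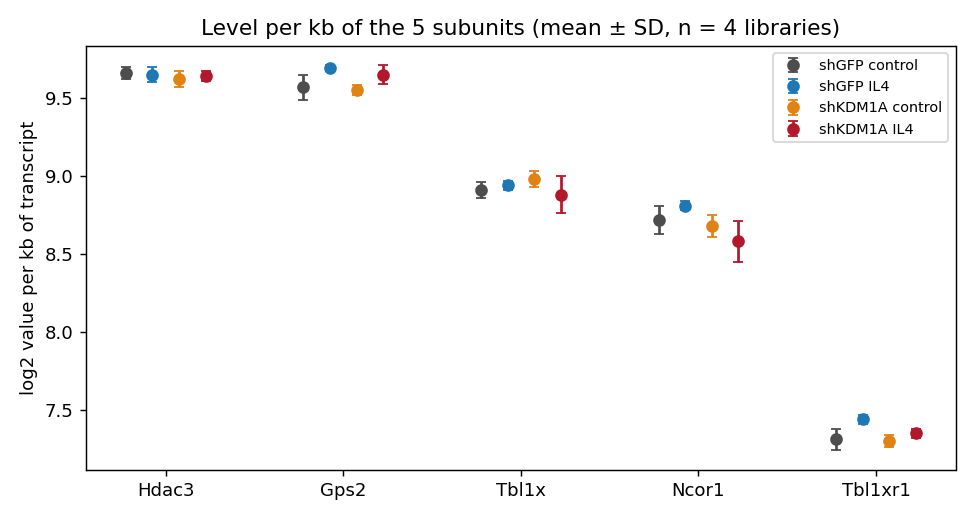
Mean log2 value per kb of transcript (vertical axis) for the 5 subunits in the 4 groups of RAW cells, with bars of 1 SD over 4 libraries. Hdac3 and Gps2 lie near 9.6 in every group and Tbl1xr1 between 7.30 and 7.44.

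The 5 mRNAs varied to different degrees. Over all 16 libraries Hdac3 spanned 0.13 log2 units, Gps2 and Tbl1xr1 0.23 each, Tbl1x 0.31 and Ncor1 0.42, where the median range over all genes tested was 0.25. Ncor1 thus differed by 1.33-fold between its lowest and its highest library and Hdac3 by 1.09-fold. The range of Ncor1 was larger than that of 83.3% of all genes tested, that of Tbl1x larger than 68.3%, of Tbl1xr1 44.2%, of Gps2 43.0% and of Hdac3 13.7%.

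**Figure D2:**
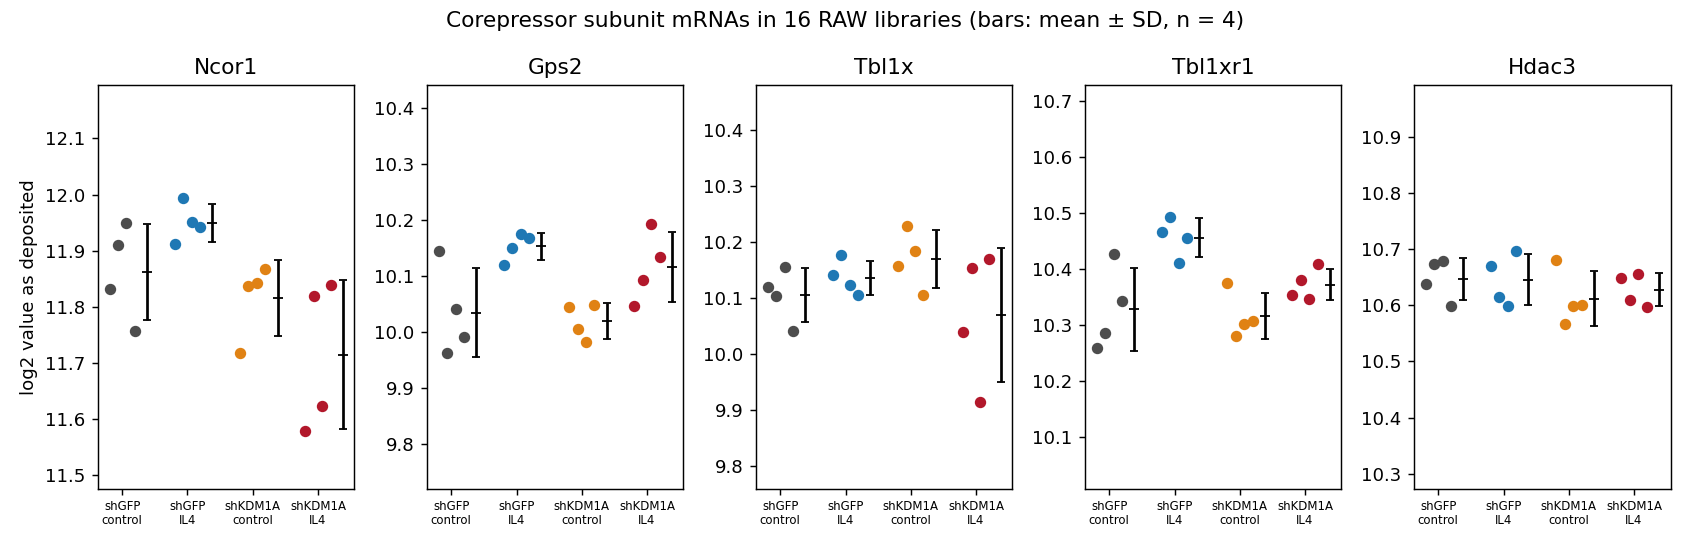
Deposited log2 value (vertical axis, 0.72 units high in each panel) of the 5 subunits in every library, with points in order of library number and bars of mean ± SD (n = 4). IL4-treated shKDM1A libraries 1 and 3 are the lowest Ncor1 values, at 11.58 and 11.62, and the 4 groups of Hdac3 cover the same range.

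Ncor1 (chr11:62129928-62252017, minus strand, 8805 exonic bases, mm9) is the scaffold. Its log2 values were 11.83, 11.91, 11.95 and 11.76 in shGFP cells without IL4 and 11.91, 11.99, 11.95 and 11.94 with IL4. In shKDM1A cells they were 11.72, 11.84, 11.84 and 11.87 without IL4 and 11.58, 11.82, 11.62 and 11.84 with IL4. Every IL4-treated shKDM1A library lay below every IL4-treated shGFP library, whereas the groups overlapped in the 3 other pairwise comparisons. With IL4, Ncor1 was lower in shKDM1A than in shGFP cells by 0.24 log2 units (log2 fold change -0.24, SE 0.056, 95% interval -0.35 to -0.12), and it passed the test (limma, adjusted p = 0.00306). Ncor1 and Tbl1xr1 were the 2 of 5 subunits called in this comparison, both lower, where 40.7% of all genes tested were called, 20.9% as higher and 19.8% as lower. The exact two-sided permutation test gave p = 0.0286, the smallest that 4 against 4 libraries allow. In a bulk sample, fewer cells that express a gene and less RNA per cell cannot be told apart. Libraries 1 and 3, which stand apart by transcript length, were the 2 lowest: without both of them the log2 fold change was -0.12 (limma, adjusted p = 0.0759), and without libraries 2 and 4 instead it was -0.35 (adjusted p = 6.38e-05). Without any 1 of the 16 libraries it ran from -0.28 to -0.19 and stayed called. IL4 moved Ncor1 by 0.09 in shGFP and -0.10 in shKDM1A cells, and neither difference passed (limma, adjusted p = 0.286 and 0.212). The second was 0.01 without libraries 1 and 3 and -0.22 (adjusted p = 0.00445) without libraries 2 and 4.

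The deviation of Ncor1 from its group mean followed the balance of long and short genes from library to library, with a Pearson r of 0.97 over 16 libraries, which were normalized together. The same r was 0.77 for Tbl1x, 0.22 for Tbl1xr1, -0.11 for Gps2 and -0.24 for Hdac3. With the balance of each library as a covariate in the fit, the log2 fold change of Ncor1 between shKDM1A and shGFP cells with IL4 was -0.05 (limma, adjusted p = 0.126), and without IL4 it was -0.06 (adjusted p = 0.027, against 0.572 without the covariate). The change of Ncor1 with IL4 was then -0.01 in shGFP and -0.01 in shKDM1A cells (limma, adjusted p = 0.691 and 0.732). Part of the balance also differed between groups: the score was 0.040 to 0.060 in the 4 IL4-treated shGFP libraries and -0.117, 0.022, -0.106 and 0.016 in the IL4-treated shKDM1A libraries. The part of this balance in the difference of Ncor1 was not tested further. On the minus strand of chromosome 11, the last 12026 bases of the Ncor1 row lie within the span of Ttc19 on the opposite strand, and the counting did not separate strands. Ttc19 itself was at 8.46 ± 0.05 and 8.42 ± 0.08 in IL4-treated shGFP and shKDM1A cells (mean ± SD, n = 4).

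**Figure D3:**
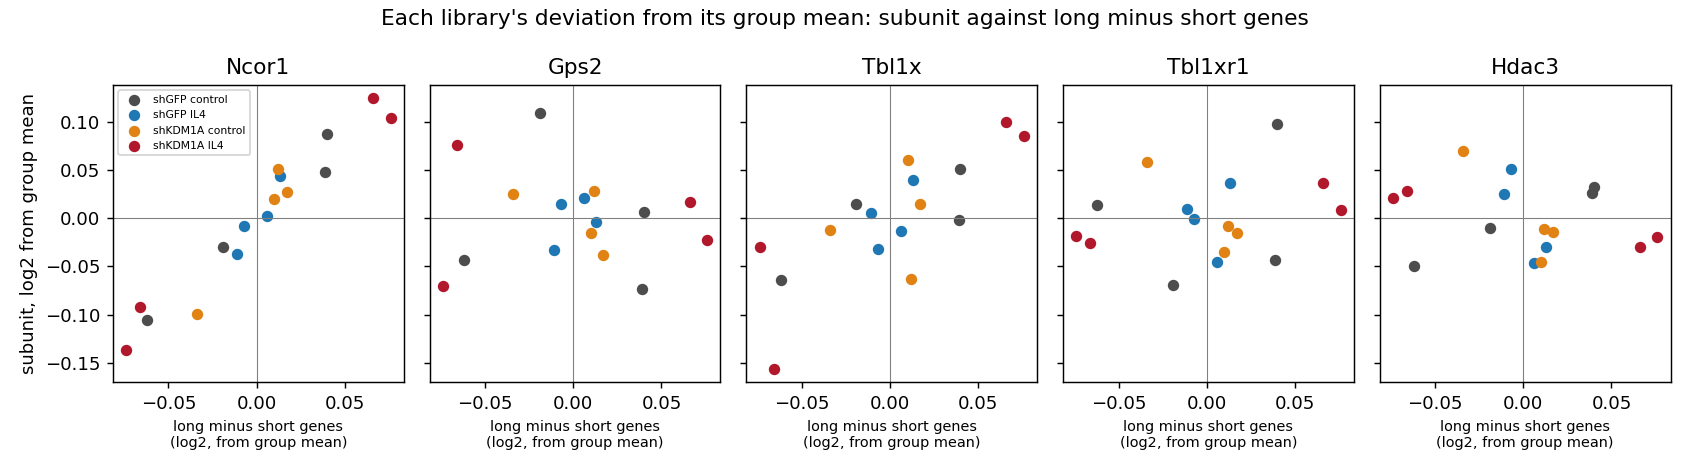
Deviation of each library from its group mean in log2 units, for a subunit (vertical axis) against the median of genes of 6000 bases or more minus that of genes under 1500 bases (horizontal axis), for 16 libraries coloured by group. The points of Ncor1 lie along a line (r = 0.97), those of Gps2 and Hdac3 do not (r = -0.11 and -0.24).

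Gps2 (chr11:69727522-69730096, plus strand, 1383 exonic bases) encodes the small subunit that the study deleted in BMDMs. In shGFP cells its log2 values were 10.14, 9.96, 10.04 and 9.99 without IL4 and 10.12, 10.15, 10.17 and 10.17 with IL4. All 4 IL4-treated libraries were above 3 of the 4 control libraries, and library 1 of the controls reached into the range of the treated ones. IL4 raised Gps2 by 8.5% in shGFP cells (log2 fold change 0.12, SE 0.036, 95% interval 0.04 to 0.20, limma adjusted p = 0.0235). Gps2 and Tbl1xr1 were the 2 of 5 subunits called in this comparison, both higher, where 26.9% of all genes tested were called, 13.1% as higher and 13.7% as lower. The exact two-sided permutation test over the 4 against 4 libraries gave p = 0.0571. The call did not hold without control library 2 (log2 fold change 0.09, limma adjusted p = 0.0805), control library 4 (0.10, 0.0715), IL4 library 3 (0.11, 0.0614) or IL4 library 4 (0.11, 0.0556), and with the length balance as a covariate it held (0.12, 0.037). It was also lost when all genes listed were tested without a filter (0.12, limma adjusted p = 0.0719). In shKDM1A cells the log2 values were 10.05, 10.01, 9.98 and 10.05 without IL4 and 10.05, 10.09, 10.19 and 10.13 with it. The difference of 0.10 (SE 0.036) missed the threshold (limma, adjusted p = 0.0618) and was 0.09 without libraries 1 and 3 of the IL4-treated cells (adjusted p = 0.128). It was called with median centring (0.11, adjusted p = 0.043), without IL4-treated shKDM1A library 1 (0.12, adjusted p = 0.0276) and without untreated shGFP library 1 (0.10, adjusted p = 0.0243). The IL4 responses of the 2 lines differed by -0.02 (95% interval -0.13 to 0.09). The knockdown left differences of -0.01 without IL4 and -0.04 with IL4, with 95% intervals of -0.09 to 0.06 and -0.11 to 0.04.

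Tbl1xr1 (chr3:21975574-22115516, plus strand, 8109 exonic bases) encodes TBLR1. Its log2 values in shGFP cells were 10.26, 10.29, 10.43 and 10.34 without IL4 and 10.47, 10.49, 10.41 and 10.46 with IL4. Control library 3 was the only control above the lowest treated library. IL4 raised Tbl1xr1 by 9.3% (log2 fold change 0.13, SE 0.032, 95% interval 0.06 to 0.20, limma adjusted p = 0.00755). The call held without any 1 of the 16 libraries (adjusted p from 6e-04 to 0.0299) and with the length balance as a covariate (0.12, adjusted p = 0.0285), and the exact two-sided permutation test gave p = 0.0571. In shKDM1A cells the values were 10.37, 10.28, 10.30 and 10.31 without and 10.35, 10.38, 10.35 and 10.41 with IL4, a difference of 0.06 that missed the threshold (limma, adjusted p = 0.235). The difference between the IL4 responses, -0.07 (95% interval -0.17 to 0.03), missed it too. With IL4, the 4 shKDM1A libraries lay just below the 4 shGFP libraries, by 0.08 on average (log2 fold change -0.08, SE 0.032, limma adjusted p = 0.0494). This call stood just past the threshold, and it was lost when 1 library was left out in 11 of 16 cases, namely shGFP control 2 or 4, IL4-treated shGFP 1, 2 or 4, shKDM1A control 2, 3 or 4, and IL4-treated shKDM1A 1, 2 or 3 (log2 fold change -0.10 to -0.07 and adjusted p up to 0.127 over all 16). It was also lost without libraries 1 and 3 of IL4-treated shKDM1A cells (-0.06, adjusted p = 0.28), without libraries 2 and 4, where the log2 fold change was larger (-0.11, 0.0503), and with the covariate (-0.06, 0.312).

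Tbl1x (chrX:74756566-74905604, plus strand, 2284 exonic bases) encodes TBL1. In shGFP cells its values were 10.12, 10.10, 10.16 and 10.04 without and 10.14, 10.18, 10.12 and 10.10 with IL4. In shKDM1A cells they were 10.16, 10.23, 10.18 and 10.11 without and 10.04, 10.15, 9.91 and 10.17 with IL4. Library 3 of the last group was the lowest of all 16, followed by library 1 of that group, and all groups overlapped. The mean of Tbl1x in shKDM1A cells was 0.06 higher without IL4 and 0.07 lower with IL4, and IL4 moved it by 0.03 in shGFP and -0.10 in shKDM1A cells, with limma adjusted p-values of 0.302, 0.271, 0.694 and 0.127. Without libraries 2 and 4 of IL4-treated shKDM1A cells the difference from IL4-treated shGFP cells was -0.16 (limma, adjusted p = 0.00634), and without libraries 1 and 3 it was 0.03 (adjusted p = 0.629). Without IL4-treated shKDM1A library 4 alone, the IL4 difference in shKDM1A cells was -0.13 (adjusted p = 0.0416). That difference was -0.01 without libraries 1 and 3 (adjusted p = 0.932) and -0.19 without libraries 2 and 4 (adjusted p = 0.00269).

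Hdac3 (chr18:38096625-38114642, minus strand, 1988 exonic bases), the catalytic subunit, was the steadiest. Its values were 10.64, 10.67, 10.68 and 10.60 in shGFP cells, 10.67, 10.62, 10.60 and 10.70 in IL4-treated shGFP cells, 10.68, 10.57, 10.60 and 10.60 in shKDM1A cells and 10.65, 10.61, 10.66 and 10.60 in IL4-treated shKDM1A cells. No group was set apart from another. All 4 differences lay between -0.04 and 0.02 log2 units with limma adjusted p-values from 0.376 to 0.981, and their 95% intervals ran from -0.10 to 0.08 at the widest, so a change of Hdac3 mRNA by more than 0.10 log2 units lay outside each of them.

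**Figure D4:**
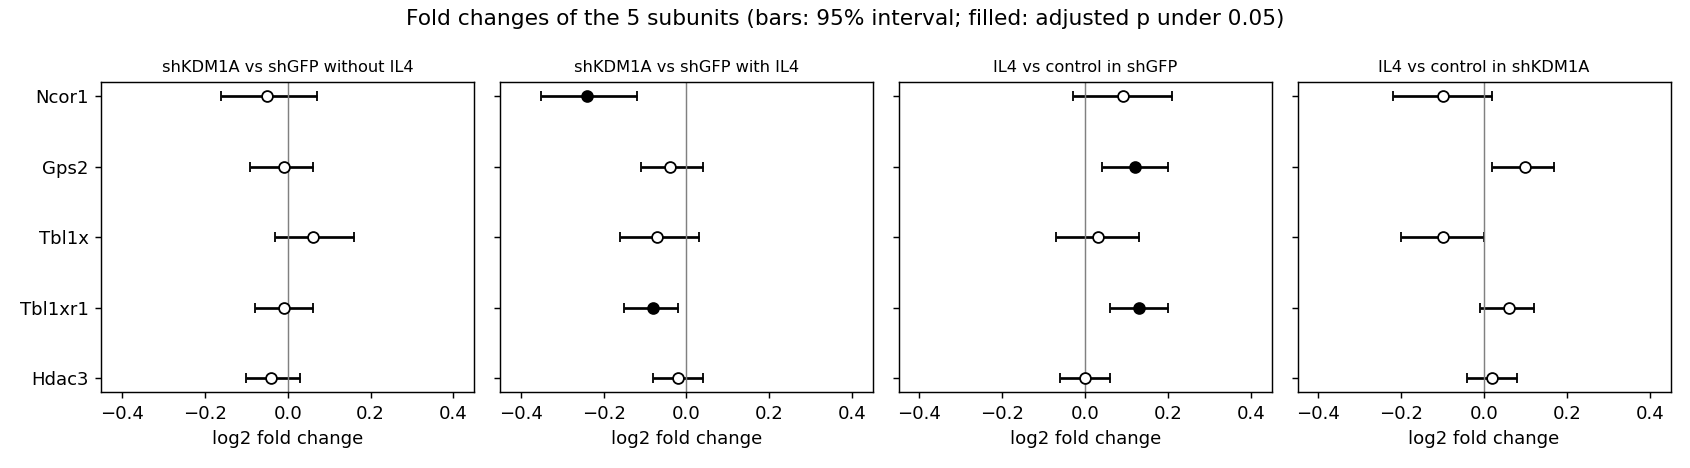
Log2 fold change (horizontal axis) of the 5 subunits in the 4 comparisons between groups of 4 libraries, with 95% intervals from limma. Filled points mark an adjusted p under 0.05: Ncor1 (-0.24) and Tbl1xr1 (-0.08) for shKDM1A with IL4, and Gps2 (0.12) and Tbl1xr1 (0.13) for IL4 in shGFP cells.

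Set side by side, the knockdown of Kdm1a without IL4 called 0 of the 5 subunits, where 38.2% of all genes tested were called, 19.7% as higher and 18.4% as lower (limma), and 0 of 5 also passed at an unadjusted p under 0.05 or by the exact permutation test. IL4 in shKDM1A cells called 0 of 5 by limma where 27.1% of all genes were called, 13.6% as higher and 13.5% as lower. Gps2 and Tbl1x passed at an unadjusted p under 0.05 there, and 0 by permutation. For the difference between the 2 IL4 responses limma called 0 of 5, where 6.13% of all genes were called, 3.56% as higher and 2.57% as lower, and Ncor1 alone passed unadjusted (log2 difference -0.19, 95% interval -0.36 to -0.02, adjusted p = 0.168). The difference of Ncor1 was -0.08 without IL4-treated shKDM1A libraries 1 and 3 (limma, adjusted p = 0.634) and 0.00 with the length balance as a covariate (adjusted p = 0.987). Without libraries 2 and 4 both Ncor1 (-0.30, adjusted p = 0.0065) and Tbl1x (-0.22, adjusted p = 0.0119) were called. The median log2 fold change of the 5 subunits was -0.01 for the knockdown without IL4, -0.07 for the knockdown with IL4, 0.09 for IL4 in shGFP and 0.02 for IL4 in shKDM1A cells, beside medians of all genes within 0.003 of 0. With the covariate the median for IL4 in shGFP cells was 0.01 and that for the knockdown with IL4 -0.05. The latter was -0.04 without libraries 1 and 3 and -0.11 without libraries 2 and 4. The comparisons share groups of libraries, and a share of 2 in 5 was near the background for the knockdown with IL4, so that count is no result about the subunits.

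The 5 mRNAs did not move as a unit over the 16 libraries. Pearson r was 0.60 for Ncor1 with Tbl1x, 0.53 for Gps2 with Tbl1xr1 and 0.39 for Ncor1 with Tbl1xr1, and lay between -0.30 and 0.32 for the other 7 pairs. After the group means were taken out, r stayed at 0.69 for Ncor1 with Tbl1x and was -0.12 for Gps2 with Tbl1xr1. These values describe 16 libraries in 4 groups that also share the length balance. The genes whose pattern was most like that of Ncor1 were Usp34, Atrx and Ddx3x (r = 0.974, 0.970 and 0.969), for Tbl1x they were Mob1a, Mob1b and Med13 (0.886, 0.864 and 0.855), for Gps2 Fcgrt, Fdxr and Prmt9 (0.906, 0.866 and 0.850), for Tbl1xr1 Tctn1, Eogt and Hvcn1 (0.887, 0.860 and 0.857), and for Hdac3 Prpsap1, Mrpl10 and Prpsap2 (0.751, 0.735 and 0.732), each over 16 libraries.

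A second list held 10 other subunits and NCoR-associated proteins, all tested. Of these IL4 raised 5 and lowered 0 in shGFP cells (13.1% and 13.7% of all genes), with a median log2 fold change of 0.12, and raised 1 and lowered 0 in shKDM1A cells (13.6% and 13.5% of all genes). With the length balance as a covariate 4 were higher and 0 lower in shGFP cells and the median was 0.06. In shKDM1A cells 2 were higher and 0 lower without IL4-treated libraries 1 and 3, and 0 higher and 3 lower without libraries 2 and 4. Bcor, a corepressor of BCL6, was called in both: its log2 values in shGFP cells were 9.86, 10.02, 9.99 and 9.83 without and 10.18, 10.31, 10.30 and 10.18 with IL4, so the groups did not overlap. Its log2 fold change with IL4 was 0.32 (SE 0.043, limma adjusted p = 2.98e-05), and 0.14 in shKDM1A cells (adjusted p = 0.0241), where it was 0.09 without libraries 2 and 4 (adjusted p = 0.206). Nrip1, the corepressor RIP140, rose by 0.19 with IL4 in shGFP cells (adjusted p = 0.00908).

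In shKDM1A cells 2 genes of the same list were higher and 2 lower without IL4, and 1 was higher and 4 lower with IL4. Of all genes tested, 19.7% were higher and 18.4% lower without IL4 and 20.9% higher and 19.8% lower with IL4. Nrip1 fell in both, by 0.37 without and 0.66 with IL4 (SE 0.050 each, limma adjusted p = 1.67e-05 and 1.96e-08): it was 9.00 to 9.17 in IL4-treated shGFP and 8.32 to 8.52 in IL4-treated shKDM1A libraries. Coro2a, a WD-repeat subunit of the complex linked to actin, was higher by 0.42 and 0.35 (SE 0.041, adjusted p = 4.28e-07 and 4.12e-06), at 8.51 to 8.63 in untreated shKDM1A libraries against 8.06 to 8.24 in untreated shGFP libraries. Bcor was lower by 0.18 and 0.36. Spen, another large corepressor, was called lower with IL4 (-0.24, SE 0.079, adjusted p = 0.0228, beside 0.00 without IL4), and this call was lost without IL4-treated shKDM1A libraries 1 and 3 (-0.06) and with the covariate (0.01), and the value was -0.42 without libraries 2 and 4. Spen lay between 10.90 and 11.33 in the IL4-treated shKDM1A libraries and between 11.31 and 11.42 in the IL4-treated shGFP libraries, so these groups overlapped. Nrip1, Coro2a and Bcor stayed called without libraries 1 and 3. The difference in IL4 response between the lines was called for Nrip1 (-0.29, SE 0.071, adjusted p = 0.025), and it was -0.20 (adjusted p = 0.122) without libraries 1 and 3 and -0.18 (adjusted p = 0.222) with the covariate. The 4 lower calls with IL4 were 2 without libraries 1 and 3 and 2 with the covariate, and they stayed 4 without libraries 2 and 4.

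Transcription factors known to recruit NCoR or SMRT were tested for 21 of 25 genes. The knockdown raised 5 and lowered 7 of them without IL4 and raised 4 and lowered 7 with IL4, and IL4 raised 4 and lowered 4 in shGFP and raised 5 and lowered 4 in shKDM1A cells. Over all genes tested the knockdown made 19.7% higher and 18.4% lower without IL4 and 20.9% higher and 19.8% lower with IL4, and IL4 made 13.1% higher and 13.7% lower in shGFP and 13.6% higher and 13.5% lower in shKDM1A cells. Ppard, a fatty acid-sensing nuclear receptor, was lower in shKDM1A cells by 0.43 without and 0.41 with IL4 (adjusted p = 3.04e-06 and 5.28e-06) and fell with IL4 by 0.32 in shGFP and 0.30 in shKDM1A cells. Rbpj, the DNA-binding factor of Notch signalling, went the other way with the knockdown (0.25 and 0.36) and fell with IL4 by 0.38 and 0.28. Bcl6b and Thra, a thyroid hormone receptor, were higher in shKDM1A cells (0.40 and 0.31 without IL4, 0.27 and 0.22 with IL4), although Thra did not stay called with IL4 when the length balance was a covariate (0.17, adjusted p = 0.0533). Rarb, a retinoic acid receptor, was lower in shKDM1A cells (-0.32 without and -0.17 with IL4, adjusted p = 3.76e-08 and 6.03e-05). It was weakly expressed, with log2 values of 4.52 to 4.65 in shGFP cells without IL4 and 4.43 to 4.46 with IL4. In shKDM1A cells they were 4.25 to 4.32 and 4.27 to 4.28, with an SD of 0.009 in the last group. The p-values of Rarb are to be read with that low level and small spread.

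Among the 15 other histone deacetylases and sirtuins, the knockdown raised 4 and lowered 2 without IL4 and raised 4 and lowered 3 with IL4, and IL4 raised 4 and lowered 1 in shGFP and raised 2 and lowered 1 in shKDM1A cells. The shares of all genes were 19.7% higher and 18.4% lower for the knockdown without IL4, 20.9% and 19.8% with IL4, 13.1% and 13.7% for IL4 in shGFP and 13.6% and 13.5% for IL4 in shKDM1A cells. With the length balance as a covariate 2 were higher and 1 lower with IL4 in shGFP cells, and without IL4-treated shKDM1A libraries 1 and 3 IL4 raised 3 and lowered 1 in shKDM1A cells. The class IIa enzyme Hdac5, whose family binds the NCoR-HDAC3 complex, was higher in shKDM1A cells by 0.27 without and 0.18 with IL4 (SE 0.020, limma adjusted p = 1.64e-08 and 2.88e-06) and rose with IL4 by 0.22 in shGFP and 0.12 in shKDM1A cells. Hdac4, of the same class, rose by 0.22 with IL4 in shGFP cells (adjusted p = 2.58e-06) and stood at -0.04 in shKDM1A cells (adjusted p = 0.267), a difference in response of -0.26 (SE 0.033, adjusted p = 0.000298).

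Of the 32 genes of the CoREST, SIN3 and NuRD complexes, the knockdown raised 3 and lowered 8 without IL4 and raised 7 and lowered 10 with IL4. IL4 raised 7 and lowered 3 in shGFP cells and raised 6 and lowered 4 in shKDM1A cells. Over all genes the knockdown gave 19.7% higher and 18.4% lower without IL4 and 20.9% higher and 19.8% lower with IL4, and IL4 gave 13.1% higher and 13.7% lower in shGFP and 13.6% higher and 13.5% lower in shKDM1A cells. Without IL4-treated shKDM1A libraries 1 and 3 the counts with IL4 were 5 higher and 8 lower for the knockdown, and 6 higher and 1 lower for IL4 in shKDM1A cells. Without libraries 2 and 4 they were 10 higher and 14 lower, and 7 higher and 7 lower. The knockdown without IL4 gave 6 higher and 8 lower under either omission. The omitted libraries are not part of that comparison and entered it only through the spread, which was estimated over all groups together. Sin3a, the SIN3 scaffold, was higher in shKDM1A cells by 0.43 without and 0.28 with IL4 (SE 0.026, limma adjusted p = 1.2e-09 and 2.67e-07). Sap30, a SIN3 subunit, was called higher with IL4 (0.27, adjusted p = 5.44e-07, beside 0.06 without IL4, where adjusted p was 0.063 and passed at 0.012 with the covariate). With the length balance as a covariate the counts for the knockdown without IL4 were 7 higher and 10 lower, those with IL4 5 higher and 7 lower, those for IL4 in shGFP cells 5 higher and 0 lower, and those for IL4 in shKDM1A cells 8 higher and 2 lower. Chd4, the remodelling ATPase of NuRD, was lower by 0.22 and 0.26, and Arid4a, which binds SIN3, by 0.14 and 0.26. With IL4 the differences of Chd4 and Arid4a were -0.19 and -0.22 without libraries 1 and 3 and -0.14 and -0.17 with the covariate, and both stayed called (limma, adjusted p = 0.00246 and 0.00513, and 0.0179 and 0.0308).

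Of the 18 tested partners of TBL1, TBLR1 and GPS2 in corepressor exchange and ubiquitin signalling, IL4 raised 0 and lowered 2 in shGFP cells and raised 1 and lowered 1 in shKDM1A cells. The shares of all genes raised and lowered by IL4 were 13.1% and 13.7% in shGFP and 13.6% and 13.5% in shKDM1A cells. The knockdown raised 2 and lowered 4 without and raised 3 and lowered 5 with IL4, beside 19.7% and 18.4% of all genes without and 20.9% and 19.8% with IL4. With the covariate 2 were higher and 6 lower without and 0 higher and 4 lower with IL4. Without libraries 1 and 3 of IL4-treated shKDM1A cells these counts were 2 and 6 without and 2 and 5 with IL4, and without libraries 2 and 4 they were 2 and 7, and 4 and 3. For IL4 in shKDM1A cells 0 were higher and 2 lower without libraries 1 and 3, and 4 higher and 2 lower without libraries 2 and 4. Siah2, a ubiquitin ligase that acts on NCoR, fell with IL4 by 0.21 in shGFP and 0.22 in shKDM1A cells (SE 0.038, limma adjusted p = 0.000581 and 0.000351) and was higher in shKDM1A cells by 0.18 and 0.17. The second of these was 0.14 without libraries 1 and 3 (adjusted p = 0.0395) and was lost with the covariate (0.11, adjusted p = 0.0888). Ctnnb1, encoding beta-catenin, with which TBL1 and TBLR1 interact, was lower in shKDM1A cells by 0.20 and 0.24 (SE 0.019).

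The coactivators were tested for 17 of 18 genes. The knockdown raised 2 and lowered 5 without IL4 and raised 1 and lowered 7 with IL4, and IL4 raised 2 and lowered 0 in shGFP and raised 3 and lowered 1 in shKDM1A cells. The shares of all genes called higher and lower were 19.7% and 18.4% for the knockdown without IL4, 20.9% and 19.8% with IL4, 13.1% and 13.7% for IL4 in shGFP and 13.6% and 13.5% for IL4 in shKDM1A cells. The 1 higher call for the knockdown with IL4 became 2 under either omission of IL4-treated shKDM1A libraries (1 and 3, or 2 and 4) and 3 with the length balance as a covariate. The 7 lower calls became 3 without libraries 1 and 3 and 2 with the covariate, and the list's median of -0.12 became -0.03 and 0.00. Without libraries 2 and 4 the lower calls were 11 and the median was -0.21. The counts for IL4 in shKDM1A cells became 5 higher and 0 lower without libraries 1 and 3, 3 higher and 4 lower without libraries 2 and 4, and 5 higher and 1 lower with the covariate. For IL4 in shGFP cells 4 were higher and 0 lower under either omission, and 2 higher and 2 lower with the covariate. Ppargc1b, a coactivator of mitochondrial and lipid genes, was lower in shKDM1A cells by 0.22 without and 0.31 with IL4 (limma, adjusted p = 0.00723 and 0.000504). The second value was -0.19 without libraries 1 and 3 and -0.17 with the covariate, and it stayed called (adjusted p = 0.0118 and 0.0361). Ncoa3, a p160 coactivator, was higher without IL4 (0.22, adjusted p = 0.000503), and with IL4 its difference of 0.10 missed the threshold (adjusted p = 0.067). That difference was 0.02 without libraries 2 and 4 (adjusted p = 0.762), and it was called without libraries 1 and 3 (0.19, adjusted p = 0.00145) and with the covariate (0.22, adjusted p = 3.62e-05). Ncoa2, of the same family, was lower with IL4 (-0.25, adjusted p = 0.00347), and it did not stay called without libraries 1 and 3 (-0.12, adjusted p = 0.0824) or with the covariate (-0.06, adjusted p = 0.212), and it was -0.38 without libraries 2 and 4. Ep300, an acetyltransferase, rose by 0.25 with IL4 in shGFP cells (adjusted p = 0.0222), and by 0.12 with the covariate (adjusted p = 0.0442).

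**Figure D5:**
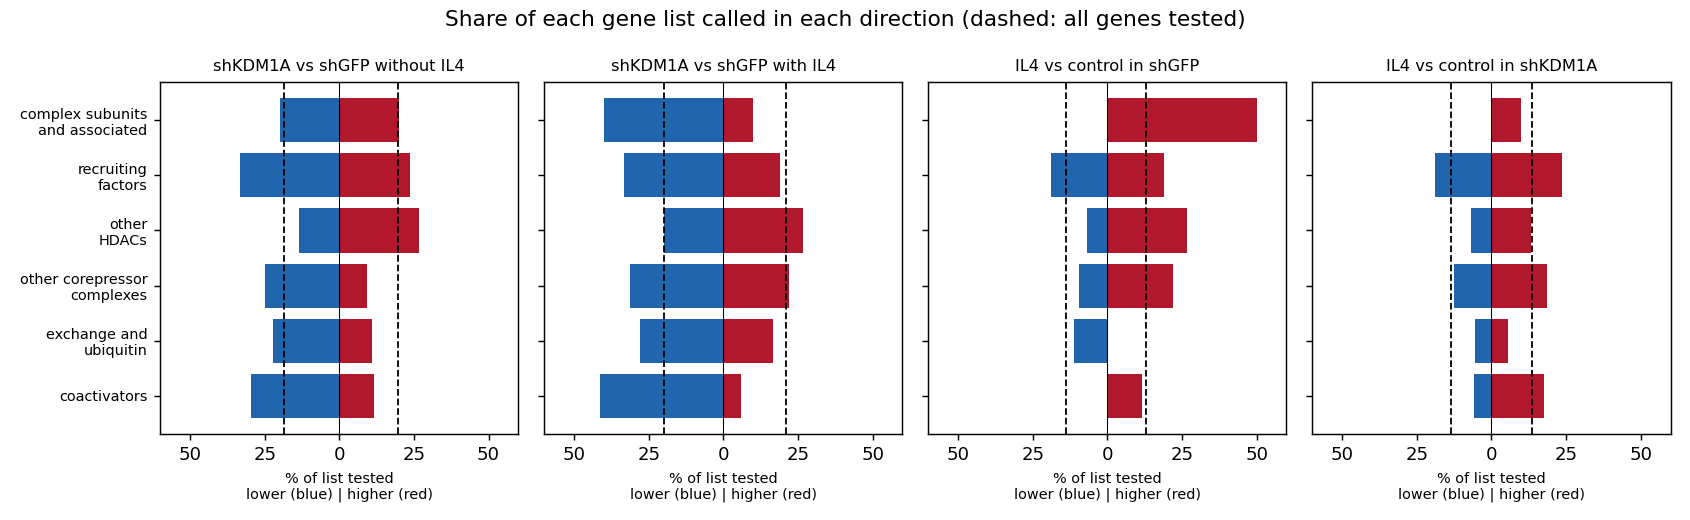
Share of each gene list, in percent of its genes tested, called lower (blue, to the left) or higher (red, to the right) in the 4 comparisons, with dashed lines at the share of all genes tested. In the IL4 comparison of shGFP cells 5 of 10 other subunits and associated proteins were higher and 0 lower, and the knockdown with IL4 lowered 7 of 17 coactivators. With the length balance as a covariate these became 4 higher subunits and associated proteins and 2 lower coactivators. The lower coactivators were 3 without IL4-treated shKDM1A libraries 1 and 3, and 11 without libraries 2 and 4.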

How the data were processed

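RNA-seq tables of RAW cells and BMDMs were used, and the other assays of the series were not analysed here. According to the labels and methods, the authors aligned reads to mm9 with HISAT2, counted them in exons on both strands with HOMER and compared groups with DESeq2. Versions are not given in the sources used here. The deposited RAW table holds per-library log2 values on a normalized, moderated scale whose transformation is not named, and these were used as deposited. Its 9 columns of comparisons, and the 12 of the BMDM table (log2 fold changes, p and adjusted p), are the authors' own results and were not used.

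The 12905 of 25094 genes that reached 1 in 4 or more of the 16 libraries were fitted with limma 3.58.1 in R 4.3.3, with 4 groups and no covariate, as 4 comparisons and the difference between the 2 IL4 responses. The groups shared 1 estimate of the spread per gene, so leaving out libraries can change calls in comparisons that they are not part of. P-values were adjusted by Benjamini-Hochberg over all genes tested and called under 0.05. The code was tested on simulated data. Named were the 5 members, up to 5 called genes per list with an absolute log2 fold change of at least 0.2, the 3 genes most correlated with each member, Kdm1a and Ptgs1. A few items are not reported here. Members and lists were chosen with earlier results of these data known. The alternatives were filters, scalings, a variance trend, 2 groups only, a replicate block, each library left out and an exact permutation test. Leaving out 2 libraries together and a covariate for the balance of long and short genes were added after seeing the data. Replicate numbers did not pair the samples.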

Additional observations from a re-analysis of the deposited data

Results flagged for a closer look

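Among 112 groups of 4 libraries of the genes named, 3 held a library far from the other 3, where chance alone flags about 5.6. Hdac4 in untreated shKDM1A cells had a lowest library at 8.62 with the others at 8.65, Siah2 in IL4-treated shGFP cells one at 8.81 with the others at 8.89, and Ptgs1 in IL4-treated shKDM1A cells one at 7.72 with the others at 7.78 to 7.79. No subunit among the 5 had such a library.

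The IL4 response differed between shKDM1A and shGFP cells for 6 of 28 genes tested, by the limma test of the difference itself, and for 0 of the 5 subunits, where 6.13% of all genes tested were called. Most of the 28 were named because they had been called in other comparisons of the same libraries, so their share is no result. The difference, as the response in shKDM1A minus that in shGFP cells, was -0.69 for Ptgs1 (adjusted p = 1.22e-06), -0.26 for Hdac4 (0.000298), -0.29 for Nrip1 (0.025) and -0.15 for Sin3a (0.0243). It was 0.20 for Sap30 (adjusted p = 0.00449) and 0.15 for Rarb (0.0211). Rarb was weakly expressed, at log2 values of 4.25 to 4.32 without and 4.27 to 4.28 with IL4 in shKDM1A cells. In shGFP cells it lay at 4.52 to 4.65 and 4.43 to 4.46. Whether Rarb could have fallen further in shKDM1A cells was not tested. Without IL4-treated shKDM1A libraries 1 and 3 the calls of Nrip1 (-0.20, adjusted p = 0.122), Sin3a (-0.11, 0.111) and Rarb (0.15, 0.0766) were lost and those of Hdac4 and Sap30 held. With the covariate for the balance of long and short genes Nrip1 (-0.18, 0.222) and Sin3a (-0.10, 0.2) were lost. Over all genes the 791 calls of this test became 348 and 329 under these 2 alternatives.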

How the results depend on the processing

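Of 665 combinations of a subunit's fold change with an alternative, 629 stayed on the same side of the threshold, 26 lost a call, 10 gained one and 0 called values changed sign. The 2 subunits called for shKDM1A with IL4 became 1 without a filter, with the replicate block and with median centring, and 0 without IL4-treated shKDM1A libraries 1 and 3 or with the length covariate. The 2 called for IL4 in shGFP cells became 1 without a filter, where Gps2 was lost. The 0 called for IL4 in shKDM1A cells became 1 with median centring and 2 without IL4-treated shKDM1A libraries 2 and 4, the 0 for shKDM1A without IL4 became 1 with the covariate, and the 0 for the difference in IL4 response became 2 without libraries 2 and 4. The genes called for that difference, 791, were 431 without a filter, 348 without libraries 1 and 3, 2282 without libraries 2 and 4 and 329 with the covariate. Spen for shKDM1A with IL4 changed sign with the covariate, to 0.0098 (adjusted p = 0.895). Leaving out each of the 16 libraries in turn gave 1 to 2 subunits called for shKDM1A with IL4, 1 to 2 for IL4 in shGFP and 0 to 1 for IL4 in shKDM1A cells. Without dividing by length, the order by level was Ncor1 (rank 1), Hdac3 (2), Tbl1xr1 (3), Tbl1x (4) and Gps2 (5). The causes were not tested.

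The replicate block left 1 subunit called for shKDM1A with IL4, Ncor1, as Tbl1xr1 had an adjusted p of 0.0784 with it. It changed no other call among the subunits. Same-numbered libraries correlated between -0.34 and 0.27 in 24 pairs, with 3 pairs over 0.1, so the numbers do not pair the samples. With quantile normalization, 43.2% of the genes called for shKDM1A without IL4 were higher, against 51.7%. The number of libraries and the moderated scale limit what differences could be seen.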
